A study of Mus musculus with 3 samples.

Results

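The keratin genes were examined in a map of open chromatin from the mouse uterus on gestation day 4, around the time implantation begins. They were taken as the protein-coding genes of the RefSeq table whose symbol is Krt plus a number, which gave 49 of 21523 protein-coding genes: 25 in the cluster on chromosome 11 and 24 in the cluster on chromosome 15. Of the 12413 peaks in the deposited list, 5 overlapped the span of a keratin gene or the 10 kb on either side, 2 on chromosome 11 and 3 on chromosome 15. No peak lay that close to Krt7, Krt8, Krt18 or Krt19, the keratins of simple epithelium.

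The map was made by FAIRE-seq. In this method, whose name stands for formaldehyde-assisted isolation of regulatory elements, DNA free of crosslinked protein is recovered from sheared chromatin and sequenced. The samples form 1 group: whole uteri of untreated wild-type C57BL/6J females, 6 to 10 weeks old and pregnant by fertile males, 3 samples in all. There is no comparison group. Because the peaks are not resolved by sample, their values carry no spread between mice and no test was made; library depth is unknown. The list holds only peaks that were called, so a gene without a peak is one where no peak was called, whatever weaker signal it has. Whole uterus mixes luminal and glandular epithelium with stroma, muscle, vessels and immune cells; a small share of cells with an open site and a weakly open site in many cells cannot be told apart in it.

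Keratins are the intermediate filament proteins of epithelial cells, and each filament is built from pairs of an acidic type I and a basic type II chain. The type I genes lie together on chromosome 11 and the type II genes on chromosome 15, where the type I gene Krt18 sits at the edge beside Krt8. Krt8 and Krt18 form the filaments of simple epithelia, to which the lining and glands of the uterus belong, with Krt7 and Krt19 as further members. The other keratins serve mainly stratified epithelia such as epidermis, and hair and its root sheath.

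The promoters show the sequences over which no peak was called. RefSeq sequences (GRCm38.p6) of 300 bases, from 250 before to 50 after a start, were matched for 35 of the 49 genes. Those of Krt7, Krt8 and Krt18 are shown because these genes are known from uterine epithelium, and that of Krt10 because the strongest peak of both clusters lies inside this gene but away from its start. Those of Eif1 and Eif4b are shown as the nearest promoters beyond the upper edge of each cluster, and both overlapped a peak. Capitals mark matches, on either strand, to the GC box GGGCGG, the TATA box TATAAA, the CCAAT box, the AP-1 motif TGANTCA and the AP-2 motif GCCNNNGGC. They lie at chr15:101412153-101412452 (Krt7, plus strand), chr15:102004293-102004592 (Krt8, minus strand), chr15:102027966-102028265 (Krt18, plus strand), chr11:99389315-99389614 (Krt10, minus strand), chr11:100319699-100319998 (Eif1, plus strand) and chr15:102073523-102073822 (Eif4b, plus strand).
Krt7 promoter, no peak: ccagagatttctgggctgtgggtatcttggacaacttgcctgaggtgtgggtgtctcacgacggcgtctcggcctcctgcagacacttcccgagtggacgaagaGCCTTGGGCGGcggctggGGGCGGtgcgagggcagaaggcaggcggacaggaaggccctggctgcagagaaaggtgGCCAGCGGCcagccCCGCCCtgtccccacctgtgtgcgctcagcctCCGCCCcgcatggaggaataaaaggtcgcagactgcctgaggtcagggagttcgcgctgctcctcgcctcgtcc
Krt8 promoter, no peak: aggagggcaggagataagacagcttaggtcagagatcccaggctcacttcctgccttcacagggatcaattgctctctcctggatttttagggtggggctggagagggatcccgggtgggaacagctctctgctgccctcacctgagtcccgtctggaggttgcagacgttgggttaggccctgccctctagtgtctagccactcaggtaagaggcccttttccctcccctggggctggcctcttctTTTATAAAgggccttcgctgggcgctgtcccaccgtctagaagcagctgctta
Krt18 promoter, no peak: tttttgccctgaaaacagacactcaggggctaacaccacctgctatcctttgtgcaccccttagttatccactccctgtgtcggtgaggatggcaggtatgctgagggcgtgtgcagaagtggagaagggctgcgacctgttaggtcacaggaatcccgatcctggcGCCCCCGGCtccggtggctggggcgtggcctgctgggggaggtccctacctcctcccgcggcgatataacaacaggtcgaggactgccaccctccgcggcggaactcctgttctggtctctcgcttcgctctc
Krt10 promoter, no peak: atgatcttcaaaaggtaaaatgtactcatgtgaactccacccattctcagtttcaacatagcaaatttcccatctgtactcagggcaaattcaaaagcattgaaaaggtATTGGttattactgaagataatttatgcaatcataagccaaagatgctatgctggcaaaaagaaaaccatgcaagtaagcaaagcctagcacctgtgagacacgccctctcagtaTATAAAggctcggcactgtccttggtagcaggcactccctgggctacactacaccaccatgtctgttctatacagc
Eif1 promoter, peak: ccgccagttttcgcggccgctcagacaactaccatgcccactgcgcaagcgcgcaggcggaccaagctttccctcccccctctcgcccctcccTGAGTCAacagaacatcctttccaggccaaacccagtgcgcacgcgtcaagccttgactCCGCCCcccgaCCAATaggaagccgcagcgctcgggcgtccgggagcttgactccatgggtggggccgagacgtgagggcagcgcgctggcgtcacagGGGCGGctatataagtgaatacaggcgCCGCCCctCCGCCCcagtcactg
Eif4b promoter, peak: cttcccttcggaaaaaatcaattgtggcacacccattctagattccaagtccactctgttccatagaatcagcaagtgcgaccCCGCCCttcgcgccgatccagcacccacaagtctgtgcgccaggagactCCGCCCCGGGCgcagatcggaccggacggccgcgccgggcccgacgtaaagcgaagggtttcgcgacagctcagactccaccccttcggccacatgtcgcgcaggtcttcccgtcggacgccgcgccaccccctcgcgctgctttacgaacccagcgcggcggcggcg

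Few keratin genes had a called peak nearby. A peak overlapped the span plus 10 kb of 5 of 49 keratins (10.2%), whereas 57.6% of all protein-coding genes had one. The share was 65.8% over the protein-coding genes of chromosome 11 and 67.8% over those of chromosome 15, so the rest of these chromosomes was not poor in peaks. Among the 13614 protein-coding genes no shorter and no longer than the keratins (2812 to 50624 bases), it was 60.2%. These genes share the range of the keratins but are longer, with a median of 15004 bases against 7422. The upper limit is the length of Krt78 alone, and Krt80, the next longest keratin, has 21848 bases. Within 1 kb of either annotated gene end, 2 of 49 keratins (4.08%) had a peak, against 44.5% of all protein-coding genes and 46.3% of those of keratin length. Inside the gene span, 4 of 49 (8.16%) had one, against 48.8%. Over their promoters, 0 of 35 keratins had one, against 41.5% of the 17274 protein-coding genes with a promoter in the sequence table. Keratins with a letter after the number (Krt6a, Krt6b, Krt33a and Krt33b) fall outside the rule, and 0 of these 4 had a peak within 10 kb.

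**Figure D1:**
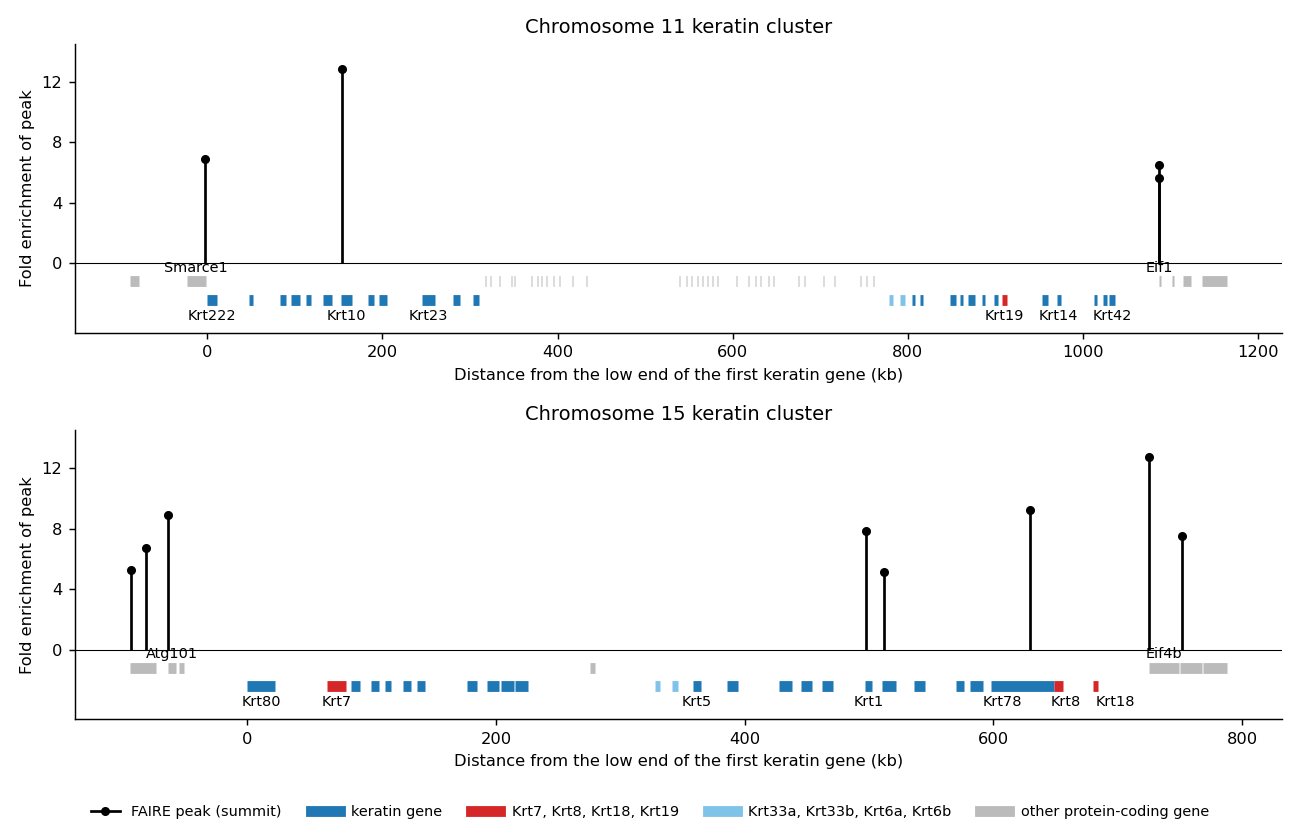
FAIRE peaks over the keratin clusters of chromosome 11 (top) and chromosome 15 (bottom), by distance in kb from the low end of the first keratin gene; black stems give the fold enrichment of each peak at its summit, and bars below the axis are genes. A single peak stands inside the chromosome 11 cluster and 3 inside the chromosome 15 cluster, while the peaks at Smarce1, Eif1, Atg101 and Eif4b lie outside them.

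The keratins of simple epithelium had no peak within 10 kb, where 57.6% of all protein-coding genes had one. The count was 0 of 6 by a list that adds Krt20, a keratin of gut and bladder lining, and Krt23. Krt8 came closest, with its nearest peak 19.0 kb below the gene and inside the span of Krt78 (9.22-fold). Krt18 had its nearest peak 41.5 kb above, at Eif4b (12.7-fold). Krt7 lay 128 kb above the nearest peak, at Atg101 (8.87-fold), and Krt19 lay 174 kb below the nearest one, at Eif1 (6.47-fold). Krt20 stood 42.0 kb and Krt23 91.6 kb from the peak inside Krt10. With 50 kb on either side, Krt8 and Krt18 come within reach of a peak, of Krt78 and of Eif4b, and Krt7 and Krt19 still do not.

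The starts of Krt8 and Krt18 point away from each other, and both were far from any summit. The Krt8 start lay 26866 bases from the nearest summit, which is on its downstream side. For Krt18 this distance was 45569 bases, again downstream, and for Krt7 it was 128145 bases, upstream. Over the 36 promoter windows of the 35 matched keratins, the distance from the start to the nearest summit had a median of 83082.5 bases and ran from 3255 (Krt10) to 278692 (Krt90).

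Among keratins of stratified epithelium, 4 of 18 (22.2%) had a peak within 10 kb: Krt1, Krt10, Krt77 and Krt78. This is below the 57.6% of all protein-coding genes. All 4 had a peak inside the gene span, and none of the 3 with a known start had one within 1 kb of it. Krt10, the type I partner of Krt1 in the upper layers of epidermis, held the strongest peak of both clusters (chromosome 11, 99385906 to 99386349, 12.9-fold, pileup 136). Only 1.27% of all peaks had a higher fold enrichment, the authors' value for a peak, read here from its column name as a ratio of signal to local background. Its summit lay 3255 bases downstream of the start in the sequence table and 855 bases from the low end of the gene. The annotated span of Krt10 is 12196 bases and reaches upstream of that start, so its high end lies farther off.

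Krt1, the type II partner of Krt10, had a peak in a like position, 678 bases from its low end (chromosome 15, 101845939 to 101846303, 7.87-fold, pileup 62). Its start and strand are not given in the tables used here, so this end is not named. Krt77, its neighbour and also a type II keratin of epidermis, had a weaker peak (101859842 to 101860123, 5.12-fold, pileup 40), 9690 bases downstream of its start and 1284 bases from its far end. That peak also lies within 10 kb of Krt1. These 3 peaks thus share a place inside the gene near the low end, at 678 to 1284 bases from it. Whether they lie in exons or introns was not analysed here.

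Krt78, another type II keratin of stratified epithelium, was the exception in position. Its peak (101977267 to 101977684, 9.22-fold, pileup 117) lay inside the annotated span, 23189 bases upstream of the start in the sequence table and 19148 bases from the nearest gene end. This peak counts for Krt78 only through that span of 50624 bases, the longest of the keratins. Its local background, computed from pileup and fold, was 11.8, against a median of 8.59 over all peaks. The corresponding values were 9.66 for the peak in Krt10 and 7.0 for those in Krt1 and Krt77.

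A peak inside the gene and none within 1 kb of a start was found for 3 of the 35 keratins with a promoter (8.57%). These were Krt10, Krt77 and Krt78. It was found for 3.36% of the 17274 protein-coding genes with a promoter. Genes with a peak within 1 kb of a start cannot be in this class. They were 46.7% of the 17274 genes and 0 of the 35 keratins, so the 2 shares do not have a like base. A peak within 1 kb of the far end and none within 1 kb of a start was found for 210 of the 17274 genes (1.22%). Krt10 was the only keratin among them. By fold enrichment the Krt10 peak ranked 2 among the 210, whose median was 5.44-fold. Of the 45 with no other protein-coding gene end within 5 kb of that far end, it had the highest. Both classes were unplanned and match the features of the Krt10 peak, so these ranks only describe that peak.

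The other 14 keratins of stratified epithelium had no peak within 10 kb. Krt5 and Krt14, the pair of basal cells, stood 133 kb and 112 kb from the nearest peak. Krt15, another basal keratin, stood at 184 kb, Krt13, of mucosal epithelia, at 198 kb, and Krt17, of hair follicles and wounded epidermis, at 58.6 kb. Krt80 stood at 63.9 kb. Keratins of hair and root sheath had a peak within 10 kb in 0 of 21, against 57.6% of all protein-coding genes. Their median distance was 175 kb and the largest 278 kb (Krt34). Krt28, of the inner root sheath, missed the 10 kb limit by the least, at 11003 bases from the peak inside Krt10.

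Of the 4 keratins in none of these lists (Krt42, Krt88, Krt90 and Krt222), Krt222 had a peak within 10 kb. That peak (chromosome 11, 99230198 to 99230897, 6.91-fold, pileup 66) lay inside the neighbouring gene Smarce1, a subunit of the SWI/SNF chromatin remodelling complex. Its summit was 613 bases from the high end of Smarce1 and 2357 bases from Krt222. It was the only one of the 5 peaks within 1 kb of a non-keratin protein-coding gene end. When peaks nearer to a non-keratin gene end were left out, 4 keratins remained with a peak.

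**Figure D2:**
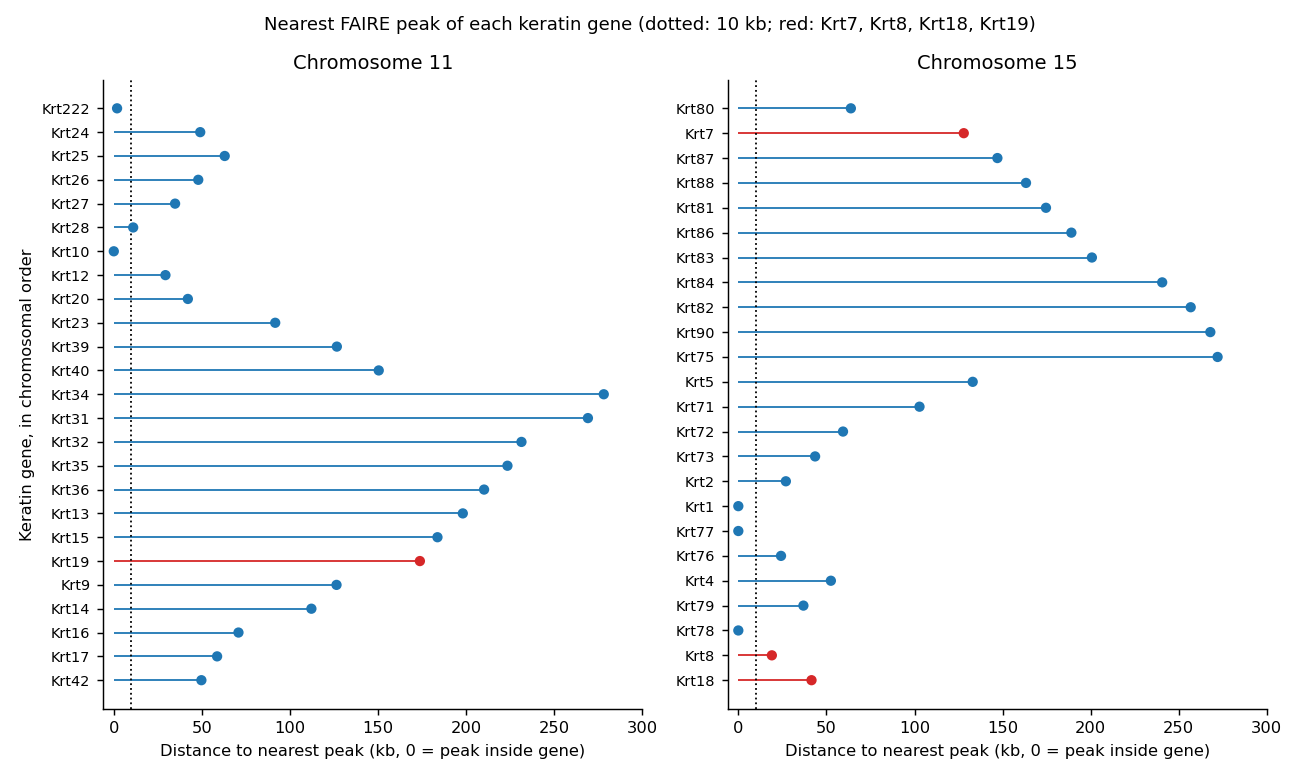
Distance in kb from each keratin gene span to the nearest FAIRE peak, in chromosomal order from the low end (top) to the high end (bottom) of each cluster, with Krt7, Krt8, Krt18 and Krt19 in red. Distances are 0 at Krt10, Krt1, Krt77 and Krt78 and rise to 278 kb at Krt34 on chromosome 11 and 272 kb at Krt75 on chromosome 15.

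In strength, 4 of the 5 peaks lay above the median of the list. Their fold enrichment ran from 5.12 to 12.9 with a median of 7.87, against 5.80 over all 12413 peaks (interquartile range 4.37 to 7.79). Their median pileup was 66, against 55, and their median width 418 bases, against 427. Among the 6206 peaks with the highest fold enrichment, 4 of the 5 remained, without that in Krt77, while the share of all protein-coding genes with a peak within 10 kb went from 57.6% to 36.2%.

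Both clusters are rich in genes, and that on chromosome 11 had few peaks for its length. On chromosome 11 the keratins span 1040 kb, from Krt222 to Krt42, with 6.27 protein-coding genes per 100 kb against 1.35 over the chromosome. This span held 1 peak, or 0.0964 per 100 kb, against 0.881 per 100 kb of chromosome 11. It also holds 40 other protein-coding genes, among them 23 keratin-associated protein genes, which encode the matrix of hair. Krt33a and Krt33b, already counted above, are also among the 40. Of these 40, 0 had a peak within 10 kb, against 65.8% of the protein-coding genes of chromosome 11. On chromosome 15 the span from Krt80 to Krt18 is 684 kb, with 3.95 protein-coding genes per 100 kb against 0.768. It held 3 peaks, or 0.439 per 100 kb, which is close to the 0.527 per 100 kb of that chromosome; over the keratin genes with their 10 kb flanks it was 0.572 per 100 kb. The 3 other protein-coding genes in this span had none within 10 kb, against 67.8% of the protein-coding genes of chromosome 15 with one. Of these 3, 2 were Krt6a and Krt6b, already counted above. Over the keratin genes of chromosome 11 with 10 kb flanks, there were 0.41 peaks per 100 kb. Only the chromosome 11 cluster was thus below its chromosome in peaks per length by both measures.

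Most keratins lay in 2 long stretches without any peak. The stretch on chromosome 11 ran for 933 kb, from the peak inside Krt10 to that at Eif1, and contained 18 keratins, Krt12 to Krt42, among 58 protein-coding genes. It was the 18th longest of the 1046 stretches between neighbouring peaks on chromosome 11, but no other there contained as many protein-coding genes. Over the genome, 5 of 12393 such stretches contained more. The stretch on chromosome 15 ran for 562 kb, from Atg101 to Krt1, and contained 16 keratins, Krt80 to Krt2, among 20 protein-coding genes, also the most on its chromosome. Shorter ones of 155 kb, 117 kb and 95.9 kb contained Krt222 to Krt28, Krt76 to Krt79, and Krt8 with Krt18.

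Beyond the keratins, the next peaks lay at the ends of other protein-coding genes. The genes named here are those at these peaks. Smim41, between Atg101 and Krt80, had no peak at its ends. Eif1, a translation initiation factor, had a summit within 1 kb of its low end, 49.7 kb above Krt42 (chromosome 11, 100319670 to 100320021, 6.47-fold). Eif4b, another initiation factor, had one 12 bases from its low end, 41.5 kb above Krt18 (chromosome 15, 102073569 to 102074112, 12.7-fold). Atg101, an autophagy gene, had one 43 bases from its low end, 63.9 kb below Krt80 (chromosome 15, 101284106 to 101284438, 8.87-fold). With that at Smarce1, each cluster was bordered on both sides by a peak at a non-keratin gene end.

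Keratin promoters had few CpG sites. The CpG ratio, the number of CG pairs over that expected from the C and G of the window, had a median of 0.28 over the 36 keratin windows (interquartile range 0.19 to 0.39). It was 0.57 over all 21045 promoter windows of protein-coding genes, of which 38.4% overlapped a peak, 0.85 over those 8079 and 0.29 over those that did not. The G and C content of keratin windows had a median of 48.8%, against 65.7% where a peak was called and 51.0% where none was. Keratin windows were thus close to windows without a peak on both measures.

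The share of all windows with a peak went up with this ratio: 0.111% at a ratio under 0.2, 2.66% from 0.2 to 0.4, 24.5% from 0.4 to 0.6, 59.0% from 0.6 to 0.8 and 81.2% at 0.8 and over. The keratin windows fell 9, 18, 6, 3 and 0 to a class, and none overlapped a peak. In the classes under 0.4, where 27 of the 36 keratin windows lie, few genes of any kind had a promoter peak. The 3 in the class from 0.6 to 0.8 were Krt7 (0.64, with 21 CpG sites), Krt18 (0.60, with 17) and Krt28 (0.78, with 10). Krt8 had a ratio of 0.24 with 6 CpG sites, and Krt10 of 0.15 with 2. Eif1 and Eif4b stood at 0.87 and 1.21. The part of base composition in the lack of keratin peaks was not tested.

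**Figure D3:**
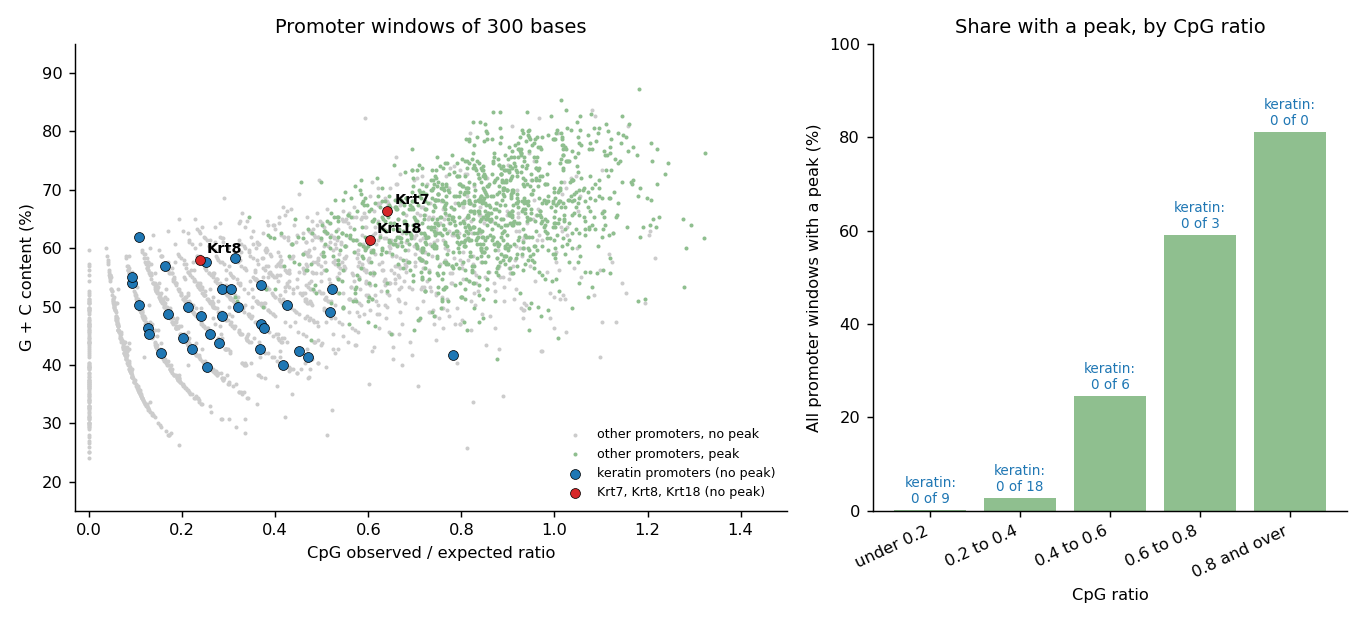
Left, G and C content (%) against the CpG ratio of promoter windows of 300 bases, with every 7th window of other protein-coding genes in grey (no peak) or green (peak) and keratins as large points; right, the share of all windows with a peak in each class of the ratio, with the keratin counts above the bars. Keratins lie mostly at the left, where few windows had a peak, and Krt7 and Krt18 lie at 0.64 and 0.60.

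Motifs such as those in capitals above were counted in all windows. A TATA box was found in 18 of 36 keratin windows (50%), against 12.7% of all 21045 windows and 4.17% of those with a peak. The GC box, bound by Sp and Klf factors, was found in 2 keratin windows (5.56%), against 46.7% of all and 78.0% of those with a peak. Those 2 were Krt7, with 4 matches, and Krt75, with 1. The AP-1 motif was found in 2 windows (5.56% against 7.04% of all), both of Krt13. The CCAAT box was found in 14 (38.9% against 38.5%), the AP-2 motif in 7 (19.4% against 20.1%), among them Krt7 and Krt18, and the E box CACGTG in 3 (8.33% against 7.91%). A GC box match can overlap an AP-2 match, as in Krt7. The 2 TATA matches of Krt8 are the same stretch read on both strands. These are matches of letters, not sites of binding.

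Other clustered or epithelial families are given by the same counts, with no test between them. Over all protein-coding genes the shares were 57.6% within 10 kb and 44.5% at a gene end. Of 56 keratin-associated protein genes, 0 had a peak within 10 kb. Claudins, the seal proteins of tight junctions, had one in 7 of 23 (30.4%) and at a gene end in 3 (13.0%), both below those shares. Hox genes, which are clustered as well, had one in 31 of 39 (79.5%) and at a gene end in 13 (33.3%), above the share of all genes on the first count and below it on the second.

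Genes that work with keratins were counted the same way, again with no test between lists; 44.5% of all protein-coding genes had a peak at an end. Among other intermediate filament genes, 8 of 15 (53.3%) had a peak at a gene end, near the share of all genes, led by Lmnb1, a nuclear lamin (9.63-fold), Synm, synemin (8.59), Ina (7.64) and Bfsp1 (7.40). Within 10 kb, 12 of 15 (80%) had a peak, above the 57.6% of all protein-coding genes. Bfsp2, Nefl and Vim, the vimentin gene of stromal cells, had none there. Desmosomes anchor keratin filaments at cell contacts, and 7 of 13 desmosome genes (53.8%) had a peak at an end, also near that share. Jup, plakoglobin, had 7.66-fold, Perp 6.88, Pkp2 6.12 and Dsp, desmoplakin, which binds keratins directly, 5.87. Within 10 kb the count was also 7 of 13 (53.8%), against 57.6% of all protein-coding genes. Dsc1, Dsc2 and Dsc3 were among those without a peak there. The list of plakins and other keratin linkers had a peak at an end in 7 of 10 (70%), a count that includes Cast, calpastatin. It was led by Dst (7.52), Ppl (7.04), Macf1 (5.06) and Tchp (4.84). Within 10 kb, 9 of 10 (90%) had a peak, against 57.6% of all protein-coding genes, and Flg alone had none.

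Cornified envelope genes, expressed with Krt1 and Krt10 in epidermis, had a peak within 10 kb in 3 of 10 (Lor, Cdsn and Tgm1), against 57.6% of all protein-coding genes, and at an end in 1. That gene was Lor, loricrin, at 5.51-fold, and it too had its peak at the far end with none within 1 kb of the start. Flg2, Ivl and Rptn were among those without a peak within 10 kb. Of the list of transcription regulators of keratin genes, 9 of 20 (45%) had a peak at an end, at the 44.5% of all protein-coding genes. That count includes Esrp1, a splicing regulator. The highest were Grhl1 (13.9-fold), Klf5 (6.94), Cebpb (6.27) and Notch1 (5.95). Within 10 kb, 13 of 20 (65%) had a peak, against 57.6% of all protein-coding genes. Ehf, Elf3 and Foxn1 were among those without one. Any of these peaks could also be that of a nearby gene.

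Markers of the cell types of the uterus gave the setting of the keratin counts. Epithelial markers other than keratins had a peak within 10 kb in 4 of 7 (57.1%; Epcam, Cdh1, Esrp1 and Grhl2, at 3.62 to 6.96-fold), which is close to the share of all protein-coding genes (57.6%) and so no result about epithelial genes. Gland markers had one in 0 of 3, endothelial markers in 0 of 3 and immune markers in 1 of 3. Stromal markers, with 4 of 7 (57.1%), and smooth muscle markers, with 3 of 5 (60%), also stood near the share of all genes. Peaks near markers do not measure how many cells of a type were present.

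**Figure D4:**
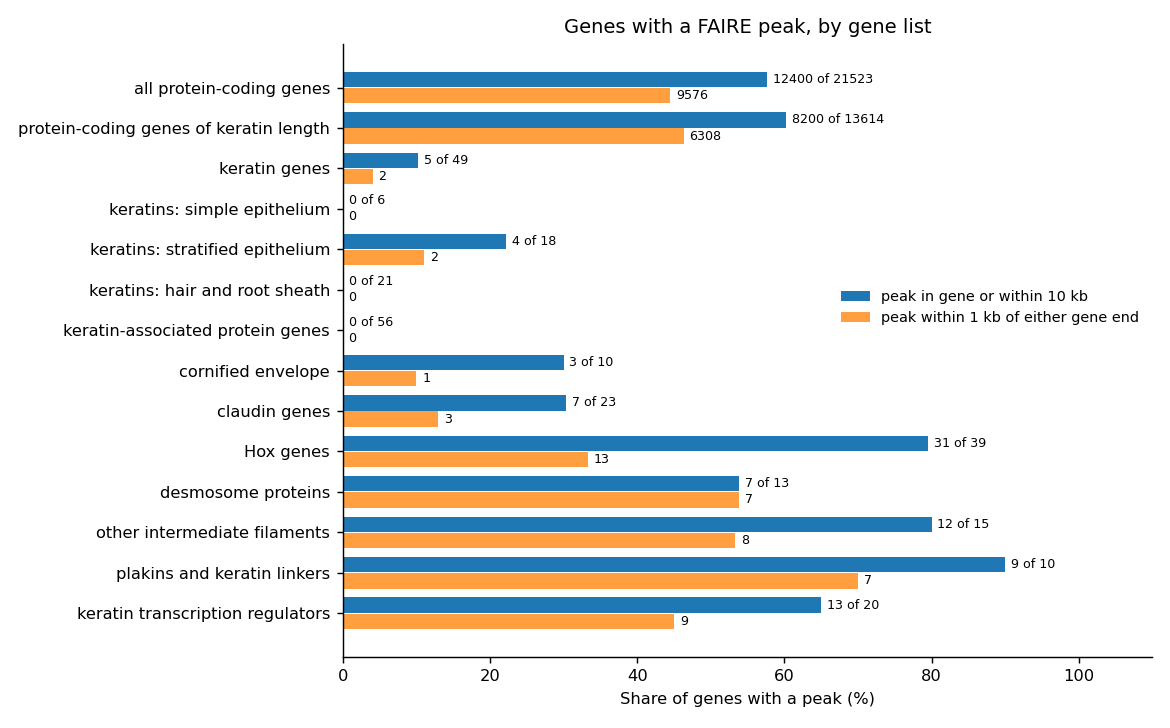
Share of genes (%) with a FAIRE peak inside or up to 10 kb away (blue) or within 1 kb of either gene end (orange), by list, with the counts beside the bars. Keratins stand at 5 of 49 and 2 of 49, with 57.6% and 44.5% over all protein-coding genes.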

How the data were processed

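FAIRE DNA of whole uteri was sequenced in 3 samples of 1 group. Per the submitters' processing notes, FastQC, Bowtie2, HOMER and MACS2 were used with the build GRCm38.p5; no source used here gives versions, the peak threshold, an input control or pooling (not stated). Per the labels, the samples come from 3 mice, while the design text speaks of RNA from 4. The deposited table gives, per the file headers, the pileup (taken as a coverage signal at the summit), the fold enrichment (taken as a ratio to local background) and the −log10 q-value, with a p-value column that was not used. Depth is unknown.

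Peaks were joined to a RefSeq gene table of GRCm38.p6 with Python 3.11.15 and pandas 2.3.3, by an overlap of at least 1 base. Genes placed by scaffold coordinates, with a start under 3 Mb, were dropped, leaving 21523 protein-coding genes. The table holds no strand; starts came from the promoter sequence table, which lacks 14 keratins: Krt1, Krt4, Krt15, Krt16, Krt17, Krt19, Krt35, Krt80, Krt81, Krt83, Krt86, Krt87, Krt88 and Krt222. Smarce1 was not matched in it either. Local background was (pileup + 1) / fold − 1. The counting procedures were tested on simulated data. Members and lists were chosen with earlier results of these data known. Named were Krt7, Krt8, Krt18 and Krt19, every keratin with a peak within 10 kb, 11 further keratins, non-keratin genes at those peaks, and up to 4 members of each partner list with the highest gene-end fold and up to 3 without a peak; Krt28, Krt34, Krt75, Krt90 and the genes bordering the clusters were named after their values were seen. Alternatives changed the peaks, flank, window, overlap rule and genes.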

Additional observations from a re-analysis of the deposited data

How the results depend on the processing

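Of 100 values recomputed under alternatives, 86 stayed within 1.5 times the reported count or share, or within the spread of the fold enrichments. Not all of them could move much. A count of 0 cannot rise when peaks are left out, and leaving out peaks of high local background kept 12383 of the 12413 peaks. The count of 5 keratins with a peak became 18 with 50 kb on either side, where 70.8% of all protein-coding genes had one, and was 4 or 5 under the other alternatives. The 2 peaks counted on chromosome 11 became 1 with the gene span alone. The count of 2 keratins with a gene-end peak was 0 with windows of 500 bases (41.5% of all protein-coding genes) and 4 with windows of 2000 (47.7%) or 5000 bases (51.9%). With the promoter window, an alternative chosen after seeing the data, it was 0. Leaving out each mouse was not run, because the table names no sample. No paired analysis was possible because there is 1 group and the columns carry no replicate number. Unknown depth limits what a missing peak shows.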

Other observations

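The stretch without peaks over the chromosome 11 keratins was 1 of 6 in the genome with more than 52 protein-coding genes. The 5 with more genes were on chromosomes 2, 7, 9, 7 and 16, and olfactory receptor (Olfr) genes made up 222 of 227, 95 of 102 and 79 of 100 in those of chromosomes 2, 9 and 1 of the 2 on chromosome 7. A stretch of 1360 kb on chromosome 3 contained 48 protein-coding genes, of which 21 were late cornified envelope (Lce) genes of epidermis. These stretches were looked up after the keratin values were seen.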
